A study of Rattus norvegicus with 8 samples.

Results

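Astrocytes from Sprague Dawley rat pups were profiled by RNA-seq after exposure to 12-273 BM melanoma cells in which amyloid beta was targeted in either of 2 ways, and those 2 ways were set directly against each other. In the sh-APP group (n = 3 libraries) the melanoma cells carried a hairpin labelled shAPPa and no antibody was added. In the anti-Abeta group (n = 3) the melanoma cells carried a scrambled hairpin, and amyloid beta was targeted by an added antibody. The remaining 2 of the 8 libraries are controls with the scrambled hairpin and no antibody. They took no part in the contrast, and their levels are given beside it. The comparison therefore used 6 of 8 libraries, and it covered the 13950 of 28546 gene entries that had 10 or more counts in at least 3 of those 6.

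All groups share the rat strain, the astrocytes and the melanoma line, and only 1 melanoma line and 1 hairpin against APP enter. Labels describe the exposure in differing ways, as a co-culture, as 24 h in melanoma medium, and as astrocyte medium placed on melanoma cells. The 2 groups differ in the hairpin and in the antibody at once, so the parts of these in any difference cannot be told apart. The sources used here do not give the age of the pups or say whether they were pooled. Whether replicate libraries stem from cultures grown apart is not stated either, and each p-value then reflects just the variation among these libraries, which may be technical.

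Amyloid beta is a short peptide cut from the amyloid precursor protein, APP, by beta-secretase and then gamma-secretase. A hairpin against APP lowers the whole precursor, including its secreted ectodomain and its intracellular tail, whereas an antibody binds the peptide once it has been made. Astrocytes feed neurons, take up glutamate and clear amyloid beta, and injured or inflamed tissue turns them reactive, with more of the filament protein Gfap and often with complement and chemokine genes.

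The libraries held between 34250464 and 47831595 counts. Counting error is therefore small for genes with many counts, where the spread between libraries sets the precision. It is larger for scarce genes, and the lowest of 4 equal classes of tested genes by level lay at 0.16 to 4.0 CPM. The first principal component (42.5% of the variance) separated the groups, and anti-Abeta replicate 1 stood apart on the second (19.1%). Within groups, anti-Abeta replicate 2 differed most from another library of its group, with a chi-square per degree of freedom of 46.7 against replicate 3, where the other pairs lay between 17.3 and 31.4. Of 18 astrocyte identity genes 17 passed the filter, with Gfap, Aqp4 and Slc1a3 among them. So did 13 of 14 neuronal and 10 of 11 oligodendrocyte lineage markers, and passing the filter therefore does not check the labelled cell type. Astrocyte App, 561 and 589 CPM in the controls, had 598, 589 and 647 in sh-APP and 514, 576 and 528 in anti-Abeta, and the difference of 0.19 ± 0.07 on the log2 scale did not pass (edgeR adjusted p = 0.0707). The hairpin acts in the melanoma cells, so App of the astrocytes does not check the knockdown. The share of counts from mitochondrially encoded genes was 2.28% ± 0.28 (SD, n = 3) in sh-APP and 3.32% ± 0.31 (SD, n = 3) in anti-Abeta (exact permutation test, two-sided p = 0.1, the smallest that 3 against 3 allows), and its part in the differences below was not tested.

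Across the 13950 genes, 3563 passed (edgeR quasi-likelihood test, adjusted p under 0.05), which is 25.5%. Of these, 1476 (10.6%) were higher in sh-APP and 2087 (15%) were lower, and the median log2 fold change over all genes tested was 0.01. Differences were mostly small: 330 genes (2.37%) passed and differed by more than 2-fold, of which 93 (0.667%) were higher and 237 (1.7%) were lower. The 3 sh-APP libraries did not overlap the 3 anti-Abeta libraries for 5974 genes (42.8%). Fold changes are written throughout as sh-APP over anti-Abeta on the log2 scale with their standard error (SE), levels are CPM (counts scaled to a common library total, with TMM factors), and values for a group run in the order of its replicates. Without sh-APP replicate 1 the calls numbered 1590 (566 higher and 1024 lower), without sh-APP replicate 3 they numbered 2089 (724 and 1365), and without anti-Abeta replicate 1 the higher calls numbered 950. Of the calls over 2-fold, 53 and 56 were higher without sh-APP replicate 1 and 3, and 148 and 123 were lower without sh-APP replicate 1 and without anti-Abeta replicate 2. Plain library totals in place of TMM gave 1841 higher and 1854 lower, so 49.8% of the calls were higher against 41.4% with TMM.

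**Figure D1:**
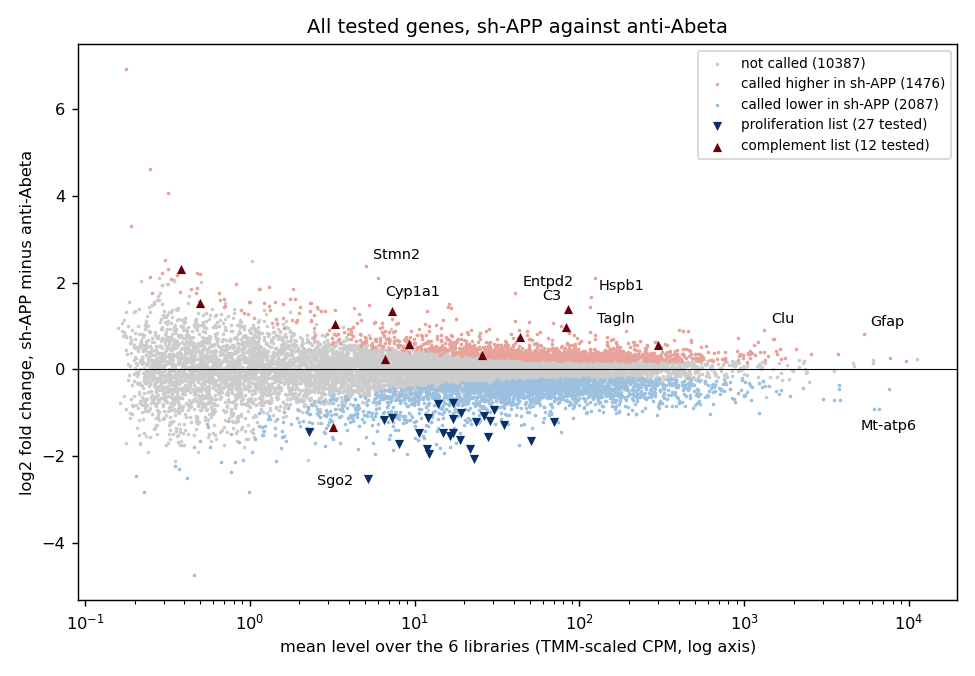
Log2 fold change of sh-APP over anti-Abeta (vertical axis) against the mean level over the 6 libraries in CPM (horizontal log axis), 1 point per tested gene, with the 27 tested mitosis and cell division genes as dark triangles pointing down and the 12 tested complement genes as dark triangles pointing up. All 27 mitosis genes lie below 0, and 11 of the 12 complement genes lie above it.

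Genes of mitosis and cell division had the lowest median fold change of the gene lists examined. Of 27 measured, 27 fell in sh-APP relative to anti-Abeta (15% of all genes did), with a median log2 fold change of -1.45 and a range from -2.53 to -0.77. Their summed level was 242, 392 and 258 CPM in sh-APP and 669, 945 and 680.0 CPM in anti-Abeta, with 869 and 1006 in the controls. Every sh-APP library lay below every anti-Abeta library for all 27 genes, as for 21.7% of all tested genes. In the summed level sh-APP replicate 2 was the highest of its group and anti-Abeta replicate 2 the highest of its own. Leaving out any 1 library kept 26 or 27 of the calls.

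These genes act at successive steps of division. Bub1, a kinase of the spindle checkpoint that holds cells in metaphase until chromosomes are attached, had 7.73, 10.5 and 8.5 CPM in sh-APP, 22.9, 37.1 and 22.8 in anti-Abeta and 37.8 and 45.2 in the controls, and fell by 1.62 ± 0.20 (adjusted p = 0.00196). Bub1b, which encodes the checkpoint protein BubR1, had 7.14, 8.81 and 6.9 against 16, 23.8 and 23.5 (17.7 and 21.2 in the controls) and fell by 1.46 ± 0.18 (adjusted p = 0.00165). For both genes the highest sh-APP library stayed well under the lowest anti-Abeta library. Ect2, the exchange factor that switches on RhoA at the cleavage furrow, had 6.46, 11.7 and 7.22 CPM against 31.4, 49.8 and 26.6, with 44.1 and 51.8 in the controls, and fell by 2.07 ± 0.27 (adjusted p = 0.00212). Prc1, which bundles microtubules of the central spindle, had 36.9, 50.8 and 34.2 against 81.4, 115 and 88.9 (112 and 123 in the controls) and fell by 1.21 ± 0.16 (adjusted p = 0.00218). Again no sh-APP library reached the anti-Abeta range. Ect2 and Prc1 overlap another gene in a later rat assembly, so their levels are less certain.

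The promoter windows of these genes are shown because the members moved together and many share 2 elements of late cell cycle promoters. One is the cell cycle homology region (CHR, searched as TTTGAA) and the other is the CCAAT box (searched as CCAAT), each on both strands, and no match of one overlaps a match of the other in the windows printed. RefSeq (GRCr8) held a window, from 250 bases before to 50 bases after the gene's start, for 22 of the 27 genes. TTTGAA was in 17 of these 22 windows (77.3%) in 18.3% of all 33469 windows and in 11.9% of the 11202 windows of tested genes. CCAAT was in 16 of 22 (72.7%), in 37.5% of all windows and in 37.2% of those of tested genes. The windows below are the 3 with the smallest p among members that hold TTTGAA, and capitals mark TTTGAA and CCAAT or their reverse complements. Bub1b lies at chr3:126016817-126017116 on the plus strand, Ect2 at chr2:111966577-111966876 on the minus strand, and Prc1 at chr1:143659231-143659530 on the plus strand.
Bub1b: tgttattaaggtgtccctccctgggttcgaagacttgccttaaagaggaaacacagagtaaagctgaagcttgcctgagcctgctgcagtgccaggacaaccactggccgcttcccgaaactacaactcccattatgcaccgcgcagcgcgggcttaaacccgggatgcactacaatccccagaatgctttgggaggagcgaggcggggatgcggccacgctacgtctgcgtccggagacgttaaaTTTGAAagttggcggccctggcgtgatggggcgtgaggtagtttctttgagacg
Ect2: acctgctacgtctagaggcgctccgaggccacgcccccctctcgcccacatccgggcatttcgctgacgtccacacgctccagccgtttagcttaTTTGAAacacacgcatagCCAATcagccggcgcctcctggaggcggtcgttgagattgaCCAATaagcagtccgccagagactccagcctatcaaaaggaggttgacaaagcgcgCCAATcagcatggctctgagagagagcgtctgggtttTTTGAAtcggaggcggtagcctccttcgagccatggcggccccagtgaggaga
Prc1: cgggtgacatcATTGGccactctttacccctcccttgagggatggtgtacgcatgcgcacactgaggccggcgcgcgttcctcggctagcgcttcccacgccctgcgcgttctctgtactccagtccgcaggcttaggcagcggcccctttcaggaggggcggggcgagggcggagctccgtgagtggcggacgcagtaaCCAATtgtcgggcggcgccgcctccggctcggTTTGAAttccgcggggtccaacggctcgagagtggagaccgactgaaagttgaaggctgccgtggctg
In these windows Bub1b had 1 match in all, Ect2 had 5 and Prc1 had 3. A match describes the letters and does not show that a factor was bound.

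The 12 largest falls that met the level and overlap rule were nearly all of the same kind. Sgo2, which protects cohesin at centromeres, had 1.07, 2.59 and 0.777 CPM in sh-APP and 6.14, 12.2 and 7.56 in anti-Abeta (7.36 and 10.3 in the controls), a fall of 2.53 ± 0.41 (adjusted p = 0.00331). Cep55, needed for the final cut between daughter cells, had 3.83, 7.98 and 2.7 against 15.1, 25.1 and 16.6 (25.1 and 30.2 in the controls) and fell by 1.96 ± 0.34 (adjusted p = 0.00437). The motor that pushes spindle poles apart, Kif11, had 6.25, 13.6 and 7.74 against 29.8, 39.7 and 29.3, with 36.2 and 51.3 in the controls, and fell by 1.83 ± 0.25 (adjusted p = 0.00224). In each of these 3 genes the sh-APP libraries also lay below the control libraries, while lying below anti-Abeta was a condition of the choice. Among proteins of the centromere and kinetochore, Cenpf fell by 1.83 ± 0.27, Cenpw fell by 1.85 ± 0.27 and Cenpk fell by 1.83 ± 0.38. Of all 19 tested genes with Cenp symbols 12 fell and 1 rose (15% and 10.6% of all genes), with a median of -0.92. Of 36 tested genes with Kif symbols 11 fell and 2 rose, with a median of -0.13. Both sets were picked after their values were seen. Nuf2, a microtubule-binding subunit of the kinetochore, fell by 1.78 ± 0.21. Kif20b, a motor of cytokinesis, fell by 1.82 ± 0.30. Depdc1 fell by 1.95 ± 0.26 and Shcbp1 fell by 1.92 ± 0.21. The call for Cenpk was lost when no low-count filter was used, and Sgo2, Kif11, Kif20b, Cenpk and Nuf2 overlap another gene.

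DNA replication and nucleotide synthesis genes also fell, with smaller fold changes. Of 24 measured, 19 fell and 0 rose in edgeR's test (20 fell and 0 rose at an unadjusted p under 0.05, 20 and 0 in DESeq2, 19 and 0 in limma-voom), with a median of -0.56 and a range from -1.11 to 0.03. Over all tested genes 15% fell and 10.6% rose. Rrm2, the regulatory subunit of ribonucleotide reductase that is made in S phase, had 8.78, 9.93 and 8.52 CPM in sh-APP, 17.1, 24.9 and 17.3 in anti-Abeta and 20.8 and 23.9 in the controls, and fell by 1.11 ± 0.17 (adjusted p = 0.00279). Its catalytic partner Rrm1 had 82.9, 84.5 and 83.2 against 117, 129.8 and 122 (154 and 157 in the controls) and fell by 0.55 ± 0.07 (adjusted p = 0.00196). Rrm1 was nearly level within sh-APP, and neither gene's groups overlapped. Mcm4, a subunit of the replicative helicase, had 48.1, 49.8 and 50.9 against 69.1, 76.3 and 72 (87 and 79 in the controls) and fell by 0.53 ± 0.07 (adjusted p = 0.00234). The 5 members that did not pass, named after their values were seen, were Lig1 (-0.38), Fen1 (-0.16), Mcm2 (-0.10), Cdt1 (-0.07) and Gins2 (0.03). Rrm2 overlaps another gene.

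Promoters of the replication list held another element. An E2F site (searched as TTTGGCGC or TTTCCCGC, both strands), where E2F factors bind in genes of the G1 to S transition, was in 10 of the 20 windows RefSeq (GRCr8) held for these genes (50%), in 0 of the 22 mitosis windows, in 1.45% of all windows and in 2.76% of those of tested genes. TTTGAA was in 1 of the 20 (5.0%) and CCAAT in 13 (65.0%). The 2 members with the smallest p among those with the site are shown to set them beside the mitosis windows, with the E2F letters in capitals. Mcm6, another helicase subunit, lies at chr13:42404303-42404602 on the minus strand, and Tyms, which makes thymidylate, at chr9:120776034-120776333 on the minus strand.
Mcm6: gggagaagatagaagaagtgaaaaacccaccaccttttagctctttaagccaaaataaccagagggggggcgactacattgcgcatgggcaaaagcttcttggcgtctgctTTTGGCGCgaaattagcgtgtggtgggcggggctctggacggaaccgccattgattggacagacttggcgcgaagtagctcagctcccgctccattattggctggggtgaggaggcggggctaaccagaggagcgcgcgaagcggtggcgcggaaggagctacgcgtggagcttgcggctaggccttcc
Tyms: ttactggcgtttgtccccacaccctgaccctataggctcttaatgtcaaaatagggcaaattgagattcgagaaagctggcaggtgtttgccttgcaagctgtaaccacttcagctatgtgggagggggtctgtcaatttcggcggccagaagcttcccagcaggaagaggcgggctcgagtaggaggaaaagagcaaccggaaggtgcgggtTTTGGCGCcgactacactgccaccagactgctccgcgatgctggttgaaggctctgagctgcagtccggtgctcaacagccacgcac
Mcm6 had 38.9, 47.9 and 41.7 CPM in sh-APP and 61.7, 62.8 and 63.6 in anti-Abeta (58.2 and 62.7 in the controls) and fell by 0.54 ± 0.09 (adjusted p = 0.00335). Tyms had 12.7, 16.5 and 14.4 against 22.1, 29.2 and 24.5, with 42.8 and 42.7 in the controls, and fell by 0.79 ± 0.14 (adjusted p = 0.0045). No sh-APP library reached the anti-Abeta range for either gene, and both were picked after their values were seen.

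**Figure D2:**
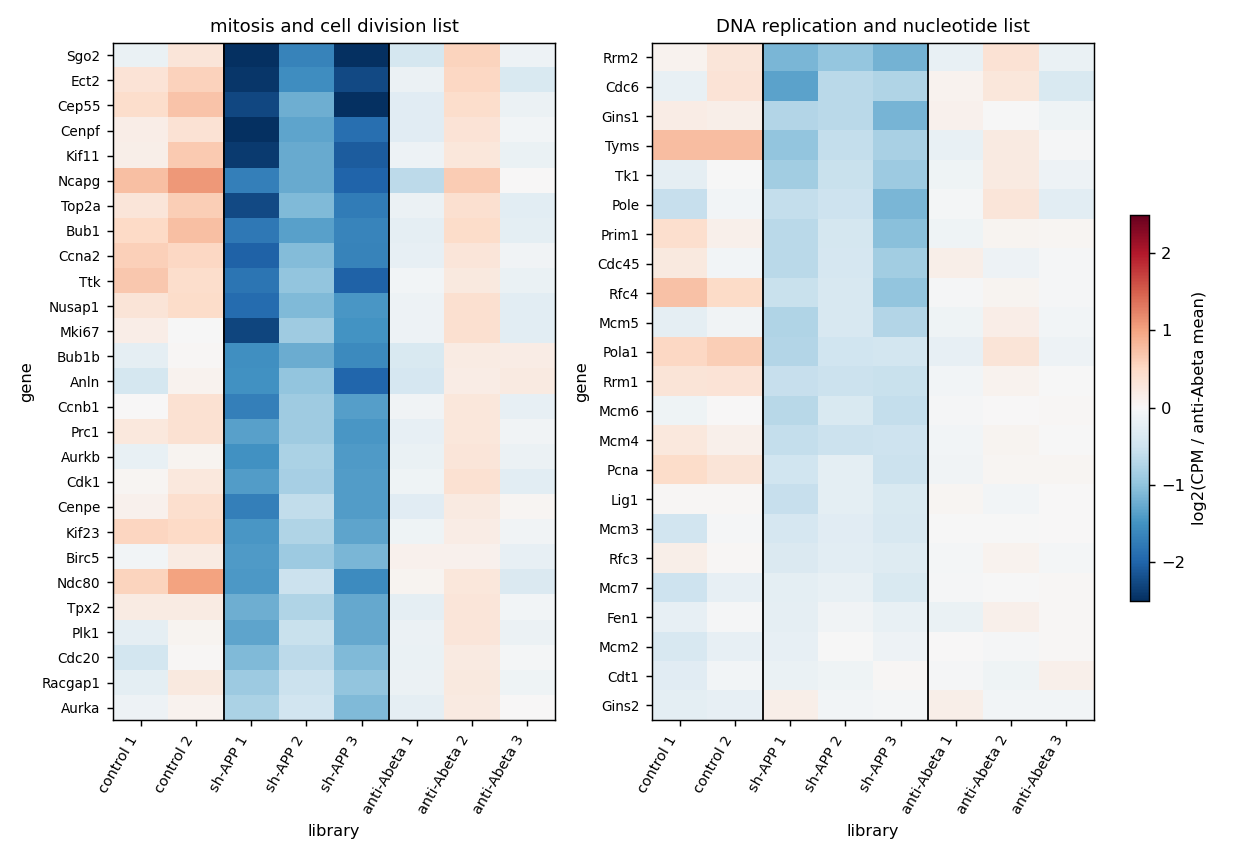
Level of the tested genes of the mitosis and cell division list (left, 27 genes) and of the DNA replication and nucleotide list (right, 23 of its 24 tested genes) in each of the 8 libraries, as the log2 ratio to that gene's anti-Abeta mean, with blue for lower and red for higher. All sh-APP columns are blue for the mitosis genes (fold changes from -2.53 to -0.77), paler for sh-APP replicate 2, while the replication genes run from -1.11 to 0.03.

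The 12 largest rises that met the level and overlap rule did not share 1 function. Stmn2, a microtubule regulator of growing neurites, had 8.37, 6.87 and 9.41 CPM in sh-APP, 1.09, 1.66 and 1.98 in anti-Abeta and 1.62 and 1.25 in the controls, a rise of 2.38 ± 0.24 (adjusted p = 0.00091). Cyp1a1, an oxidase under the aryl hydrocarbon receptor, had 6.43, 8.11 and 13.7 against 1.51, 2.72 and 2.3 (1.56 and 3.6 in the controls) and rose by 2.12 ± 0.31 (adjusted p = 0.00263). Both were low in anti-Abeta and control libraries alike, and sh-APP replicate 3 was the highest library for each. Hspb1, the small heat shock protein Hsp27, had 196, 129.8 and 194 against 53.8, 46.3 and 64.5 (40.3 and 35.1 in the controls) and rose by 1.67 ± 0.16 (adjusted p = 0.000806). Entpd2, a cell surface enzyme that breaks down ATP, had 62.8, 49.8 and 70.2 against 18.6, 16.3 and 19.7, with 13.1 and 13.9 in the controls, and rose by 1.75 ± 0.13 (adjusted p = 0.000164). Tagln, an actin-binding protein of contractile cells, had 171, 149.7 and 168 against 54.6, 61.4 and 65.5 (44.5 and 37.7 in the controls) and rose by 1.44 ± 0.09 (adjusted p = 0.000106). For these 3 genes every sh-APP library also lay above the control libraries, while lying above anti-Abeta was a condition of the choice.

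Cbs, which makes cystathionine from homocysteine, had 27.7, 18.1 and 23.7 CPM in sh-APP and 6.74, 7.56 and 10.3 in anti-Abeta (5.96 and 8.1 in the controls) and rose by 1.51 ± 0.19 (adjusted p = 0.00212). Serpinf1, which encodes the secreted factor PEDF, had 17.3, 12.8 and 15.8 against 4.25, 5.36 and 3.59, with 4.82 and 4.25 in the controls, and rose by 1.81 ± 0.18 (adjusted p = 0.00091). Aspg, an asparaginase named in lists of reactive astrocytes, had 15.9, 11.4 and 11.4 against 3.4, 3.28 and 4.3 (1.73 and 2.95 in the controls) and rose by 1.82 ± 0.19 (adjusted p = 0.000923). The anti-Abeta libraries lay nearer to the controls than to sh-APP for all 3, while non-overlap of the 2 groups was a condition of the choice. Ppp1r1b, the phosphatase inhibitor DARPP-32, rose by 1.41 ± 0.17, Cited1, a transcriptional co-regulator, by 1.48 ± 0.24, and Caln1, which overlaps other genes, by 1.44 ± 0.18. C3, the remaining one of the 12, is described with complement.

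**Figure D3:**
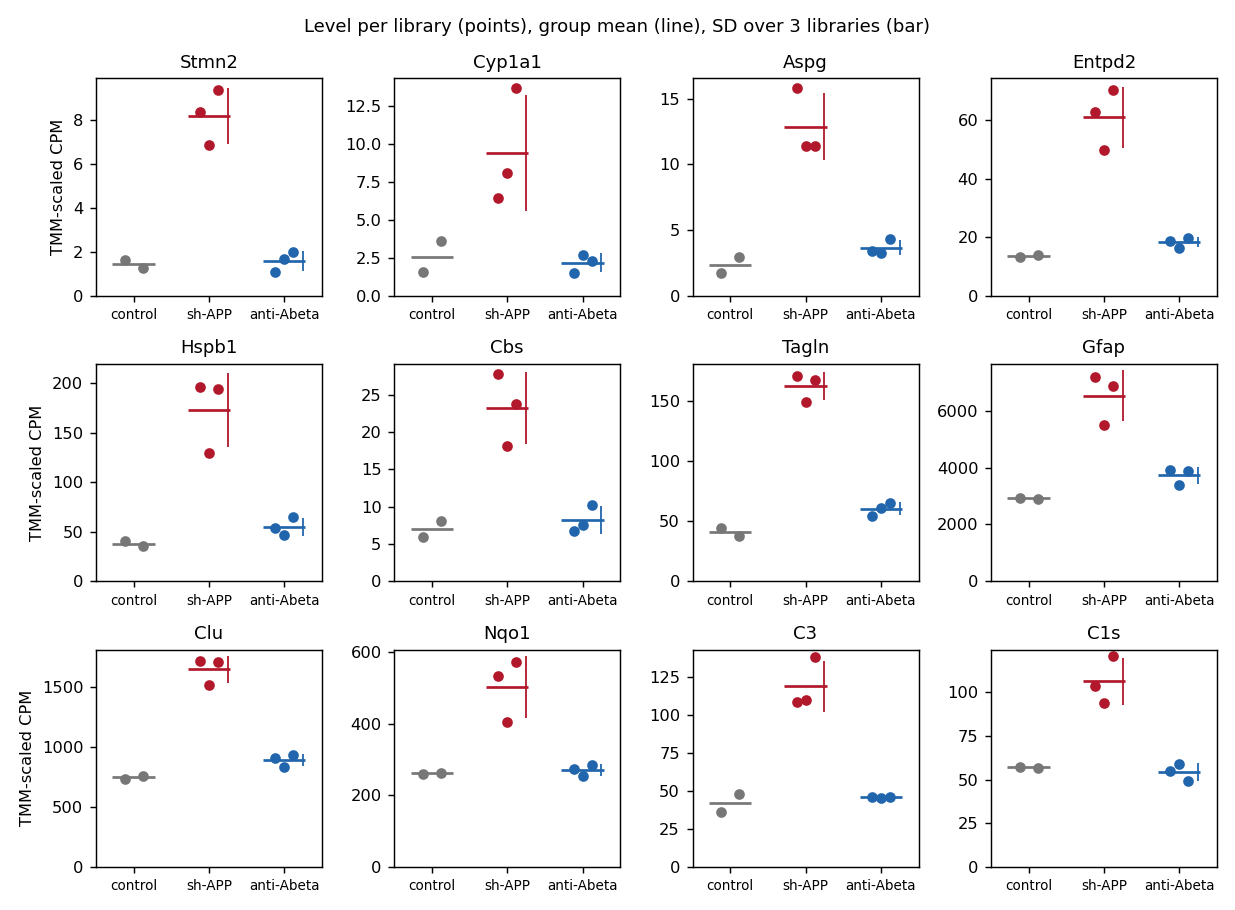
Level in CPM of 12 genes in each library (points), with group means (lines) and, for sh-APP and anti-Abeta, the SD over 3 libraries (bars), each panel from 0. The sh-APP points lie above all anti-Abeta and control points in every panel, for example Gfap at 5502 to 7181 CPM against 2905 to 3915 CPM.

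Genes that mark astrocytes were higher with the hairpin. Of 17 measured, 10 rose (10.6% of all genes did) and 0 fell, with a median of 0.37, and at an unadjusted p under 0.05 these were 15 and 1 (DESeq2 13 and 1, limma-voom 10 and 0). Gfap, the intermediate filament of astrocytes, had 7181, 5502 and 6887 CPM in sh-APP, 3915, 3387 and 3881 in anti-Abeta and 2932 and 2905 in the controls, and rose by 0.82 ± 0.10 (adjusted p = 0.00184). Aldoc, the astrocytic aldolase, had 563, 517 and 613 against 342, 361 and 372 (281 and 328 in the controls) and rose by 0.67 ± 0.08 (adjusted p = 0.00141). Sh-APP replicate 2 was the lowest of its group in both genes and still lay above the other 5 libraries. Ndrg2, enriched in mature astrocytes, had 1137, 983 and 1188 against 684, 628 and 710.4, with 648 and 599 in the controls, and rose by 0.72 ± 0.08 (adjusted p = 0.00141). Ntsr2, a neurotensin receptor of astrocytes, had 119, 92.4 and 112 against 71.1, 48.8 and 61.9 (51.8 and 45.1 in the controls) and rose by 0.84 ± 0.13 (adjusted p = 0.00309). The groups did not overlap in either gene. The summed level of the whole list, 21280 to 24556 CPM in sh-APP, 16916 to 18298 in anti-Abeta and 18759 and 19446 in the controls, moved in the direction opposite to the mitosis genes, and in bulk RNA a change in the number of such cells and a change in RNA per cell cannot be told apart. The member that lay lowest, Gja1 (-0.29, picked after its value was seen), encodes the gap junction protein connexin 43. In 4 alternatives that kept all libraries, among them DESeq2, a filter of 1 CPM and all 8 libraries, 1 member fell. Without anti-Abeta replicate 3, 1 member fell as well.

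Lists of reactive astrocyte genes were mixed, to be read against 10.6% higher and 15% lower over all tested genes. Of 12 genes shared by different reactive states, 5 rose and 0 fell (5 and 1 at an unadjusted p under 0.05, 5 and 0 in DESeq2 and in limma-voom), with a median of 0.12 (0.25 without anti-Abeta replicate 2, and 1 fell without anti-Abeta replicate 1). Hspb1, Aspg and Gfap, given above, were among the 5, as was Lcn2, an iron-binding lipocalin, at 629, 585 and 646 CPM in sh-APP, 454, 399 and 469 in anti-Abeta and 354 and 397 in the controls (0.51 ± 0.07, adjusted p = 0.00274). The general filament gene Vim had 4576, 4560 and 4534 against 4059, 4711 and 4340 (3516 and 3955 in the controls), a difference of 0.07 ± 0.07 whose libraries overlapped (adjusted p = 0.503). Of 8 genes of the A1 list, named for astrocytes activated by microglial signals, 4 rose and 1 fell, with a median of 0.44 (0.31 without a low-count filter). Fbln5, an elastic fibre protein, rose by 1.34 ± 0.26 (adjusted p = 0.00669), and Amigo2, an adhesion protein, fell by 1.18 ± 0.23 (adjusted p = 0.00648). Amigo2 had 2.17, 1.9 and 1.51 CPM in sh-APP and 4.91, 3.35 and 4.54 in anti-Abeta, and it overlaps another gene. Of 12 genes of the A2 list, named for ischaemia, 2 rose and 1 fell, counts near those shares. Ptx3, a long pentraxin, rose by 0.81 ± 0.11 and Stat3, a transcription factor of cytokine signalling, by 0.19 ± 0.06 (adjusted p = 0.0475), while Tm4sf1, a membrane protein, fell by 1.18 ± 0.25. The Stat3 call was lost in each of the 6 fits that left out a library, as well as in 3 others, 2 of the A2 list fell without sh-APP replicate 2, and Ptx3 overlaps another gene.

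Complement genes rose together. Of the 20 in the list 12 passed the filter, and of these 8 rose and 0 fell (10 and 1 at an unadjusted p under 0.05, 9 and 1 in DESeq2, 8 and 0 in limma-voom), with a median of 0.86. Over all tested genes 10.6% rose and 15% fell. C3, the central component whose cleavage all 3 activation routes share, had 108, 110.2 and 138 CPM in sh-APP, 45.7, 45.5 and 45.9 in anti-Abeta and 36.4 and 48.3 in the controls, and rose by 1.39 ± 0.10 (adjusted p = 0.000106). C1s and C1r are the proteases of the first classical component. C1s had 104, 94.2 and 121 against 55, 59 and 49.2 (57.4 and 56.9 in the controls) and rose by 0.98 ± 0.10 (adjusted p = 0.00119). C1r had 49.3, 47.2 and 61.5 against 31.3, 33.4 and 31.1, with 26 and 28.3 in the controls, and rose by 0.73 ± 0.11 (adjusted p = 0.00274). In all 3 genes the anti-Abeta libraries lay close to the controls and every sh-APP library lay above both.

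The inhibitor of C1r and C1s, Serping1, rose with them, at 333, 334 and 364 CPM in sh-APP, 234, 237 and 233 in anti-Abeta and 201 and 234 in the controls (0.57 ± 0.06, adjusted p = 0.00136). Cfb, the protease of the alternative route and a gene picked after its values were seen, had 8.76, 12 and 9.41 against 3.11, 5.09 and 3.71 (3.29 and 4.2 in the controls) and rose by 1.35 ± 0.21 (adjusted p = 0.00309). Both an activator and an inhibitor were therefore higher with the hairpin. The recognition subunits C1qa, C1qb and C1qc, made mainly by microglia, held 20, 20 and 14 counts over the 6 libraries and were not tested. C1r overlaps another gene.

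Genes of inflammatory signalling were called in both directions, and those of the NF-kB pathway rose more often than they fell. Of 21 genes of the NF-kB pathway, 5 rose and 1 fell (10.6% and 15% of all genes), with a median of 0.13. Sod2, the mitochondrial superoxide dismutase and an NF-kB target, had 647, 618 and 745 CPM in sh-APP, 453, 482 and 451 in anti-Abeta and 494 and 543 in the controls, and rose by 0.55 ± 0.08 (adjusted p = 0.00265). The co-regulator Nfkbiz had 25.1, 29.5 and 31.1 against 44.4, 77.1 and 36.6 (47 and 60.4 in the controls) and fell by 0.87 ± 0.23 (adjusted p = 0.0209). Anti-Abeta replicate 2 was the highest library for Nfkbiz, while the Sod2 groups were evenly spaced apart. Bcl3, another co-regulator, rose by 0.39 ± 0.09 and the inhibitor Nfkbib, which overlaps another gene, by 0.34 ± 0.09. The number that rose was 1 without sh-APP replicate 1 and 3 without any of sh-APP replicates 2 and 3 and anti-Abeta replicates 1 and 2, and the fall of Nfkbiz was lost without sh-APP replicate 1 or 2 and with no low-count filter.

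Among cytokines and chemokines, 20 of 28 passed the filter, and 5 rose and 3 fell (10.6% and 15% of all genes), with a median of 0.10 (-0.11 with no low-count filter and -0.03 without anti-Abeta replicate 1). Ccl2, the chemokine that draws monocytes, had 579, 727 and 668 CPM in sh-APP, 783, 905 and 821 in anti-Abeta and 1222 and 1247 in the controls, and fell by 0.33 ± 0.09 (adjusted p = 0.0238). The related chemokine Ccl7 had 236, 259 and 288 against 216, 188 and 210.2 (238 and 251 in the controls) and rose by 0.36 ± 0.08 (adjusted p = 0.0115). These 2 monocyte chemokines thus differed in opposite directions, with Ccl2 of both groups below the controls. Il33, an alarmin of the nucleus, had 7.64, 8.19 and 7.93 against 4.74, 4.99 and 3.83, with 6.02 and 6.85 in the controls, and rose by 0.83 ± 0.16 (adjusted p = 0.00571). Cxcl14, a chemokine of epithelia and brain, rose by 0.40 ± 0.08 (adjusted p = 0.00654). Cxcl9, an interferon-gamma target, held 15, 10 and 20 counts in sh-APP against 0, 2 and 2 in anti-Abeta, too few for its fitted fold change to be used. Cxcl10, a target of interferons, had 5.34, 6.44 and 6.05 CPM against 6.48, 22.9 and 7.9 (11.1 and 19.7 in the controls), and its difference of -1.06 ± 0.40 did not pass (adjusted p = 0.0765), with anti-Abeta replicate 2 far above the other 2. The Ccl2 call was lost in the fits lacking replicate 1 or 3 of sh-APP or replicate 2 of anti-Abeta, those for Ccl7 and Cxcl9 without sh-APP replicate 3, where 2 members rose. The members that fell numbered 1 without sh-APP replicate 1 or anti-Abeta replicate 2 and 5 in DESeq2, with a filter of 1 CPM and with all 8 libraries. Il33 and Cxcl10 overlap another gene.

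Genes of the type I interferon response, the antiviral programme set off by interferon receptors, were close to even. Of 23 measured, 3 rose and 2 fell (10.6% and 15% of all genes), with a median of 0.01. Stat2, a transcription factor of that programme, had 80.9, 68.7 and 78 CPM in sh-APP, 58.9, 61.7 and 53.4 in anti-Abeta and 45.4 and 51.8 in the controls, and rose by 0.40 ± 0.09 (adjusted p = 0.00988). Irf7, a factor that amplifies interferon production, had 4.56, 4.36 and 5.8 against 3.14, 3.18 and 2.83 (3.01 and 2.65 in the controls) and rose by 0.70 ± 0.19 (adjusted p = 0.0217). Eif2ak2, the RNA-sensing kinase PKR, had 42.6, 51.6 and 57.3 against 61.4, 78.8 and 71.2, with 104 and 97.9 in the controls, and fell by 0.47 ± 0.12 (adjusted p = 0.0199). Ifi44 fell by 0.49 ± 0.16 (adjusted p = 0.0443). In edgeR fits, 1 member rose in the absence of replicate 1 or 3 of sh-APP or replicate 3 of anti-Abeta. There, 0 fell without sh-APP replicate 1 or anti-Abeta replicate 2, and 1 fell without sh-APP replicate 2 or 3, in limma-voom and with library totals. Eif2ak2 overlaps other genes.

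Antigen presentation genes were called in both directions, at shares not far from those over all tested genes. Of 19 measured, 3 rose and 4 fell (10.6% and 15% of all genes), with a median of 0.21. The class I heavy chain gene RT1-A1 had 40.9, 41.9 and 42.6 CPM in sh-APP, 32.4, 31.7 and 31.5 in anti-Abeta and 23.9 and 26.5 in the controls, and rose by 0.41 ± 0.08 (adjusted p = 0.00558). B2m, the light chain of the same molecule, had 142, 154 and 157 against 206, 229 and 191 (295 and 287 in the controls) and fell by 0.46 ± 0.08 (adjusted p = 0.00454). The heavy and light chain genes thus differed in opposite directions, and B2m was highest in the controls. RT1 genes belong to a family of near-identical copies, so the counts of RT1-A1 are less certain. Canx, a chaperone that folds heavy chains in the endoplasmic reticulum, had 1156, 1349 and 1288 against 1611, 2267 and 1746, with 2855 and 2813 in the controls, and fell by 0.56 ± 0.12 (adjusted p = 0.00945). Erap1, which trims peptides there, had 67.8, 68.1 and 72.6 against 94.2, 84.3 and 90.4 (119 and 119 in the controls) and fell by 0.35 ± 0.07 (adjusted p = 0.00659). Without sh-APP replicate 1, 1 member rose and 2 fell, with the call for Canx lost. With upper-quartile factors or library totals 5 rose, and Canx overlaps another gene.

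Extracellular matrix genes rose more often than they fell. Of 52 measured, 13 rose and 5 fell (10.6% and 15% of all genes), with a median of 0.08 (0.01 without sh-APP replicate 3 and 0.18 without anti-Abeta replicate 2). Bgn, the proteoglycan biglycan, had 593, 525 and 582 CPM in sh-APP, 341, 256 and 336 in anti-Abeta and 303 and 188 in the controls, and rose by 0.88 ± 0.10 (adjusted p = 0.00141). Fbln2, a fibulin of basement membranes, had 566, 507 and 529 against 338, 237 and 303 (236 and 136 in the controls) and rose by 0.88 ± 0.11 (adjusted p = 0.00178). The controls were far apart for both genes, but no sh-APP library reached the anti-Abeta range. Sparc, a matricellular protein that binds collagen, had 1872, 1806 and 1877 against 1316, 1361 and 1381, with 1118 and 1160 in the controls, and rose by 0.47 ± 0.06 (adjusted p = 0.00212). Timp2, an inhibitor of matrix metalloproteinases that overlaps another gene, rose by 0.48 ± 0.07 (adjusted p = 0.00246). Thbs2, a thrombospondin picked after its values were seen, had 19, 11.3 and 19.6 against 6.88, 5.94 and 6.84 (7.47 and 4.52 in the controls) and rose by 1.35 ± 0.20 (adjusted p = 0.00279). In the other direction Col3a1, a fibrillar collagen, had 16, 12.9 and 14.3 against 20.5, 28.8 and 23.5 (24.2 and 28.4 in the controls) and fell by 0.74 ± 0.15 (adjusted p = 0.00659). The members that fell numbered 2 without sh-APP replicate 1 or 3, and 3 without anti-Abeta replicate 1 or 3 and with library totals.

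Of 19 genes of transforming growth factor beta, its targets and targets of the co-activator YAP, 2 rose and 5 fell, with a median of 0.23. Over all genes 10.6% rose and 15% fell, so the share that rose was near the former. Beside Tagln, which rose, the ligand gene Tgfb2 had 9.9, 14.6 and 14 CPM in sh-APP, 24.3, 19.6 and 23 in anti-Abeta and 34.2 and 31.1 in the controls, and fell by 0.79 ± 0.15 (adjusted p = 0.00604). Postn, the matricellular protein periostin, had 4.61, 7.15 and 6.08 against 10.7, 13.9 and 11.4 (17.4 and 16.1 in the controls) and fell by 1.00 ± 0.18 (adjusted p = 0.00497). Axl, a receptor kinase for the bridging molecule Gas6, had 419.7, 435 and 404 against 546, 548 and 530.0, with 497 and 473 in the controls, and fell by 0.36 ± 0.06 (adjusted p = 0.0036). The levels of Tgfb2 and Postn stepped down from controls to anti-Abeta to sh-APP, whereas Axl was highest in anti-Abeta. The members that rose numbered 4 in 6 alternatives that kept all libraries, as well as without anti-Abeta replicate 2. Among the 6 were DESeq2, limma-voom, the fit of all 8 libraries, library totals and a filter of 1 CPM. Tgfb2 overlaps another gene.

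Of 29 immediate early genes and feedback genes of growth factor signalling, 6 rose and 3 fell (10.6% and 15% of all genes), with a median of 0.08. Junb, a subunit of the AP-1 factor, had 189, 168 and 180.0 CPM in sh-APP, 132, 118 and 145 in anti-Abeta and 99.1 and 97.8 in the controls, and rose by 0.46 ± 0.08 (adjusted p = 0.00497). Zfp36, which speeds the decay of cytokine mRNAs, rose by 0.35 ± 0.08 (adjusted p = 0.0125). Dusp6, a phosphatase that damps ERK, had 246, 253 and 252 against 356, 388 and 310.2 (393 and 427 in the controls) and fell by 0.48 ± 0.08 (adjusted p = 0.0041). Klf10, an early target of transforming growth factor beta, had 281, 318 and 239 against 386, 382 and 411, with 517 and 477 in the controls, and fell by 0.48 ± 0.09 (adjusted p = 0.00656). The groups did not overlap for any of these 4 genes. The members that rose numbered 2 without sh-APP replicate 1, 1 without sh-APP replicate 3, where the Zfp36 call was lost, and 3 without anti-Abeta replicate 1. Klf10 overlaps another gene.

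Genes that process the amyloid precursor or clear its peptide leaned upward, with 9 of 27 higher and 3 lower (10.6% and 15% of all genes) and a median of 0.19. Clu, the secreted chaperone clusterin that binds amyloid beta, had 1722, 1524 and 1714 CPM in sh-APP, 910.4, 835 and 937 in anti-Abeta and 734 and 762 in the controls, and rose by 0.90 ± 0.07 (adjusted p = 0.000228). Psen2, a catalytic subunit of gamma-secretase, had 37.4, 36.6 and 40.1 against 26.9, 23.9 and 27.4 (24.5 and 23.7 in the controls) and rose by 0.56 ± 0.09 (adjusted p = 0.00331). Bace2, a relative of beta-secretase, had 38.3, 37.2 and 39.9 against 30.5, 29.1 and 29.7, with 25.1 and 26.5 in the controls, and rose by 0.38 ± 0.08 (adjusted p = 0.00837). All sh-APP libraries lay above the other 5 for these 3 genes. Picalm, a clathrin adaptor of endocytosis, had 30, 37.1 and 32.5 against 49.9, 53.4 and 44.4 (66.5 and 72.3 in the controls) and fell by 0.55 ± 0.10 (adjusted p = 0.00528). Apoe, the main lipid carrier made by astrocytes, had 12630, 11760 and 10880 against 10310, 8858 and 11040 (7176 and 7244 in the controls), and its difference of 0.24 ± 0.09 did not pass (adjusted p = 0.0766). The Apoe groups overlapped, and both lay above the controls. The members that rose numbered 5 without sh-APP replicate 1 or 3, and those that fell numbered 1 in the absence of replicate 1 or 2 of sh-APP or replicate 2 of anti-Abeta. Clu overlaps other genes.

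Of 28 lysosomal genes, 10 rose and 5 fell, with a median of 0.16. Over all tested genes 10.6% rose and 15% fell, and the share of lysosomal genes that fell was near the latter. Ctsb, the protease cathepsin B, had 1485, 1355 and 1512 CPM in sh-APP, 1103, 1069 and 1163 in anti-Abeta and 1049 and 1021 in the controls, and rose by 0.40 ± 0.07 (adjusted p = 0.00403). Tfeb, the transcription factor that drives lysosomal genes, had 17.1, 15.9 and 15.3 against 12, 11.8 and 11.9 (8.86 and 11 in the controls) and rose by 0.45 ± 0.11 (adjusted p = 0.0147). Atp6v1a, the catalytic subunit of the proton pump, had 77.8, 88.3 and 87.9 against 126, 124 and 111, with 157 and 156 in the controls, and fell by 0.49 ± 0.08 (adjusted p = 0.00322). Asah1, the acid ceramidase, fell by 0.36 ± 0.08 (adjusted p = 0.0103). A protease gene and a pump gene thus differed in opposite directions. The members that rose numbered 1 without sh-APP replicate 1, 4 without sh-APP replicate 3 and 5 without anti-Abeta replicate 1 or 2. Those that fell numbered 1, 2, 3 and 3 in the same order, and 3 without anti-Abeta replicate 3 and with library totals. Tfeb and Atp6v1a overlap another gene.

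**Figure D4:**
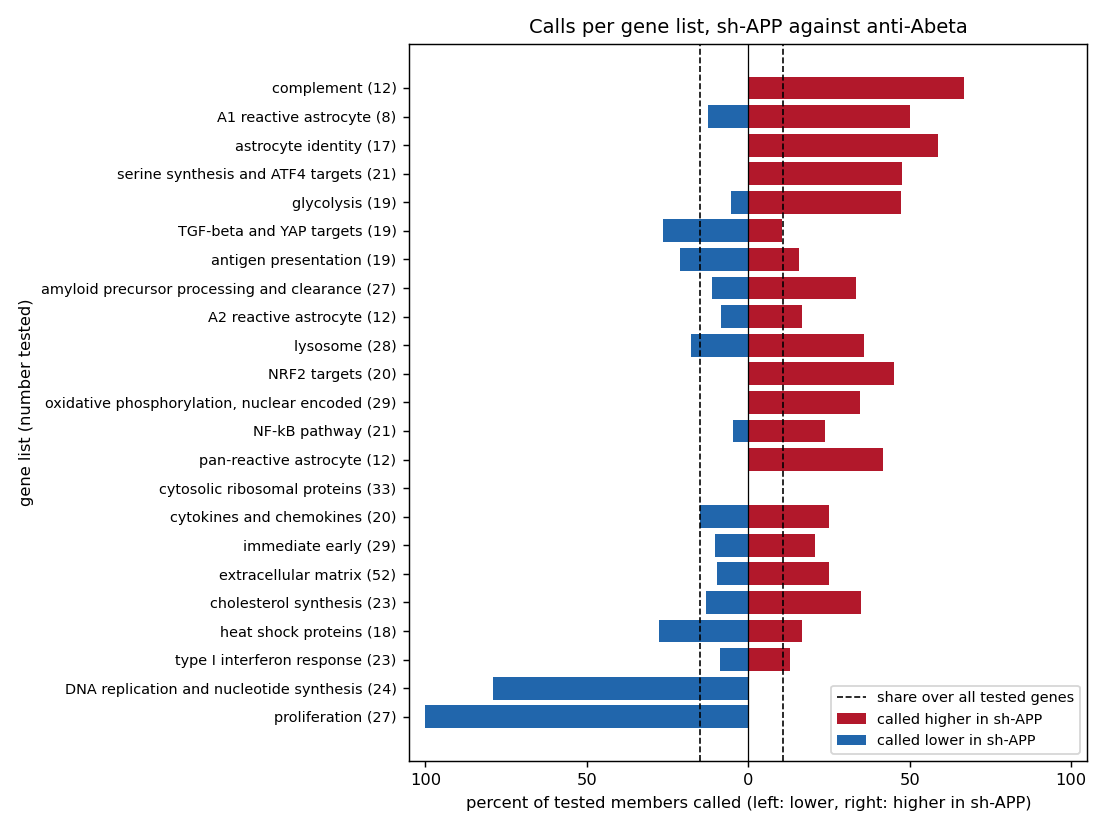
Percent of tested members called higher (right, red) or lower (left, blue) in sh-APP for each of 23 pathway lists, ordered by median fold change, with dashed lines at the shares over all tested genes (10.6% and 15%). The mitosis list has 100% of its members called lower and the complement list 66.7% called higher.

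Genes at several steps of sugar metabolism were higher with the hairpin. Of 19 genes of glycolysis and its transporters, 9 rose and 1 fell (10.6% and 15% of all genes), with a median of 0.26. Slc2a1, the glucose transporter Glut1, had 54.1, 44.4 and 55.1 CPM in sh-APP, 34, 25.8 and 34.7 in anti-Abeta and 26.8 and 26.1 in the controls, and rose by 0.72 ± 0.13 (adjusted p = 0.00429). Pfkm, a form of phosphofructokinase, had 296, 261 and 287 against 204, 200.4 and 215 (174 and 186 in the controls) and rose by 0.46 ± 0.07 (adjusted p = 0.0028). Gapdh, the dehydrogenase of the middle of the pathway and often taken as a constant reference, had 1438, 1346 and 1351 against 1028, 1083 and 1046, with 870.0 and 856 in the controls, and rose by 0.40 ± 0.06 (adjusted p = 0.00309). All sh-APP libraries exceeded all others for these 3 genes. The single member that fell, the lactate and ketone transporter Slc16a1 (-0.58 ± 0.19, picked after its value was seen), had overlapping groups, and its call was lost in 12 alternatives. Pfkm overlaps other genes.

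Amino acid synthesis genes and targets of the stress factor ATF4 gave 10 of 21 higher and 0 lower (12 and 0 at an unadjusted p under 0.05, 11 and 0 in DESeq2, 10 and 0 in limma-voom), with a median of 0.26, where 10.6% of all tested genes were higher and 15% lower. Phgdh, the first enzyme of serine synthesis, had 535, 507 and 501 CPM in sh-APP, 396, 391 and 422 in anti-Abeta and 292 and 320.3 in the controls, and rose by 0.36 ± 0.06 (adjusted p = 0.00411). Slc3a2, the heavy chain of several amino acid transporters, had 1049, 975 and 1052 against 807, 802 and 809.8 (670.2 and 724 in the controls) and rose by 0.36 ± 0.06 (adjusted p = 0.00376). Its partner Slc7a5 rose by 0.41 ± 0.09 (adjusted p = 0.00853). Trib3, a pseudokinase induced by ATF4, had 2.87, 2.31 and 2.49 against 0.971, 0.636 and 0.896 (0.418 and 0.921 in the controls) and rose by 1.63 ± 0.28 (adjusted p = 0.0042). Trib3 was scarce in every library, while the other 3 genes were well covered and their groups did not overlap. Without sh-APP replicate 1, 6 members rose.

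Targets of the antioxidant factor NRF2 rose in 9 of 20 cases and fell in 0 (10 and 2 at an unadjusted p under 0.05, 9 and 0 in DESeq2 and in limma-voom), with a median of 0.14, against 10.6% and 15% of all tested genes. Nqo1, a quinone reductase, had 532, 405 and 572 CPM in sh-APP, 273, 253 and 285 in anti-Abeta and 259 and 263 in the controls, and rose by 0.91 ± 0.11 (adjusted p = 0.00185). The glutathione transferase Gsta1 had 168, 161 and 184 against 113, 113 and 129, with 179 and 166 in the controls, and rose by 0.54 ± 0.08 (adjusted p = 0.00277). Gsta1 was as high in the controls as in sh-APP, unlike Nqo1, for which the anti-Abeta libraries lay nearer to the controls. Gstm1, of the same enzyme class, rose by 0.41 ± 0.07 (adjusted p = 0.00347). Without sh-APP replicate 2, 1 member fell. Glutathione transferases belong to families of similar copies, so their counts are less certain.

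Cholesterol synthesis genes moved both ways, with 8 of 23 higher and 3 lower (10.6% and 15% of all genes) and a median of 0.05. Mvk, mevalonate kinase, had 70.4, 70.1 and 70.8 CPM in sh-APP, 53.9, 53.7 and 54.3 in anti-Abeta and 38.4 and 45.4 in the controls, and rose by 0.40 ± 0.07 (adjusted p = 0.00344). Its 2 groups were each nearly level and did not overlap. Tm7sf2 and Lss, enzymes of the sterol steps, rose by 0.44 ± 0.07 (adjusted p = 0.00335) and 0.34 ± 0.07 (adjusted p = 0.0061). Hsd17b7, another enzyme of those steps, had 31.9, 37.3 and 37.5 against 54.7, 62.5 and 49.4 (76 and 81.9 in the controls) and fell by 0.63 ± 0.11 (adjusted p = 0.00377). The members that rose numbered 5 without sh-APP replicate 1 and 4 without sh-APP replicate 3.

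Mitochondrially encoded genes fell together. All 13 mitochondrially encoded protein genes fell (15% of all genes did), with a median of -0.66 and a range from -1.06 to -0.35. Mt-atp6, a subunit of ATP synthase, had 4470, 4533 and 4226 CPM in sh-APP, 9577, 9104 and 6378 in anti-Abeta and 18720 and 15000 in the controls, and fell by 0.91 ± 0.13 (adjusted p = 0.00246). Mt-nd5, a subunit of complex I, had 305, 324 and 276 against 550.4, 576 and 408 (1036 and 823 in the controls) and fell by 0.75 ± 0.12 (adjusted p = 0.00316). Mt-nd6 and Mt-nd4l, of the same complex, fell by 0.99 ± 0.14 and fell by 0.99 ± 0.13. In all 4 genes the level stepped down from controls to anti-Abeta to sh-APP, and anti-Abeta replicate 3 was the lowest of its group. Parts of these genes can be copied into nuclear pseudogenes, and the sources used here do not say how such reads were counted.

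A list of nuclear genes of the respiratory chain and ATP synthase, with 29 measured, gave 10 rises and 0 falls, with a median of 0.13. At an unadjusted p under 0.05 these were 14 and 1 (10 and 0 in DESeq2 and in limma-voom). Over all tested genes 10.6% rose and 15% fell. The 0 falls hold for that list: of all 43 tested genes whose symbols start with Nduf 8 rose and 5 fell, with a median of 0.04, and of 22 whose symbols start with Cox and a digit 2 rose and 3 fell, sets picked after their values were seen. Ndufs8, a subunit of complex I, had 199, 209 and 189 CPM in sh-APP, 155, 154 and 167 in anti-Abeta and 126 and 132 in the controls, and rose by 0.33 ± 0.07 (adjusted p = 0.00741). Ndufs7 and Ndufv1, of the same complex, rose by 0.35 ± 0.08 (adjusted p = 0.012) and 0.25 ± 0.07 (adjusted p = 0.0201), and both overlap another gene. Atp5g1, of the ring of ATP synthase, rose by 0.32 ± 0.08 (adjusted p = 0.017). All 4 were lowest in the controls, the reverse of the mitochondrially encoded genes. The number that rose rested on all libraries: it was 1 without sh-APP replicate 1, 3 without sh-APP replicate 2 or 3, and 4 without anti-Abeta replicate 1 or 2, and 1 member fell without sh-APP replicate 2.

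**Figure D5:**
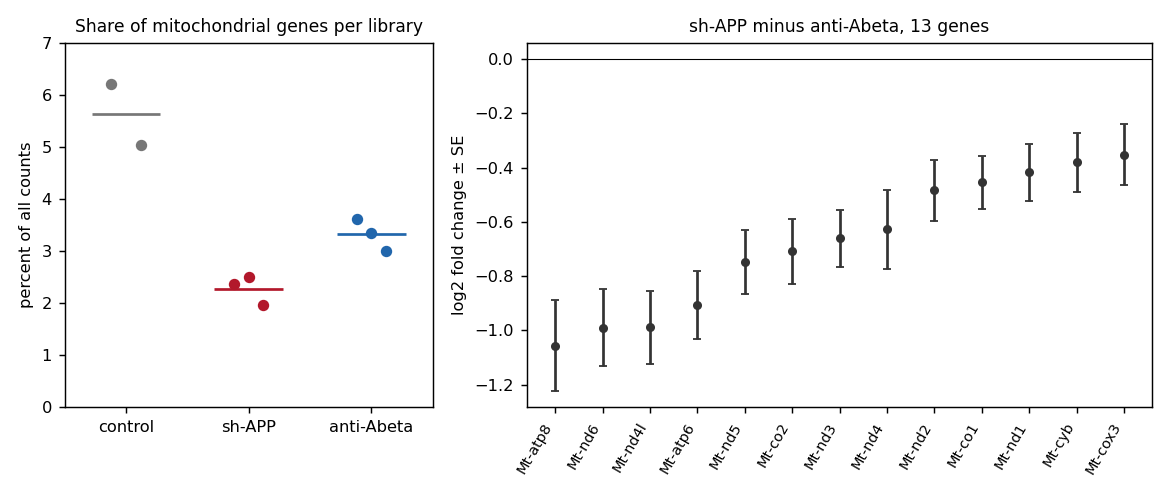
Left: percent of all counts from mitochondrially encoded genes in each library (points) with group means (lines), 1.97% to 2.5% in sh-APP, 3.01% to 3.62% in anti-Abeta and 5.04% and 6.21% in the controls. Right: log2 fold change of sh-APP over anti-Abeta with SE for the 13 genes, all below 0, from Mt-atp8 (-1.06) to Mt-cox3 (-0.35).

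Of 18 heat shock and chaperone genes, 3 rose and 5 fell (10.6% and 15% of all genes), with a median of 0.04. Besides Hspb1, the small heat shock protein gene Hspb8 rose, at 43.5, 38.6 and 43.2 CPM in sh-APP, 27.4, 24 and 29.5 in anti-Abeta and 26.6 and 27 in the controls (0.65 ± 0.10, adjusted p = 0.00309). Dnajb9, a co-chaperone of the endoplasmic reticulum that is induced by unfolded protein, had 97.6, 114 and 119 against 195, 271 and 165 (358 and 336 in the controls) and fell by 0.92 ± 0.16 (adjusted p = 0.00398). Hspd1, the mitochondrial chaperonin Hsp60, had 331, 363 and 366 against 496, 503 and 440.4, with 709 and 633 in the controls, and fell by 0.43 ± 0.07 (adjusted p = 0.00374). Dnajb9 and Hspd1 were highest in the controls and lowest in sh-APP, and both overlap another gene.

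Of 33 listed genes of cytosolic ribosomal proteins, the protein parts of the ribosome, 0 rose or fell in edgeR's test, with a median of 0.10. At an unadjusted p under 0.05, 8 rose and 0 fell. DESeq2 called 2 higher and limma-voom 0. Their summed level was 6203 to 6930 CPM in sh-APP, 5909 to 6567 in anti-Abeta and 5587 and 5997 in the controls, and the groups overlapped. Upper-quartile factors, library totals and leaving out anti-Abeta replicate 3 each gave 3 higher, and no low-count filter or leaving out the mitochondrially encoded genes gave 1. Of the 78 tested genes with Rpl or Rps symbols, a wider set picked after its values were seen, 3 fell and 0 rose, with a median of 0.02.

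Markers of other cell types were followed because other brain cells or melanoma cells could contribute RNA. Among 13 measured neuronal markers 2 rose and 3 fell (10.6% and 15% of all genes), with a median of -0.32 (from -0.58 without sh-APP replicate 3 to -0.13 without anti-Abeta replicate 1), and their summed level was 185 to 199 CPM in sh-APP, 260 to 324 in anti-Abeta and 371 and 393 in the controls. Snap25, a protein of synaptic vesicle fusion, had 22.5, 23.2 and 23.3 CPM in sh-APP, 45.2, 50 and 48.2 in anti-Abeta and 71.4 and 65.6 in the controls, and fell by 1.04 ± 0.09 (adjusted p = 0.000228). Map2, which stabilises dendritic microtubules, had 97.5, 108 and 106 against 153, 207 and 158 (229 and 265 in the controls) and fell by 0.72 ± 0.11 (adjusted p = 0.00316). Stmn2, given above, and Tubb3, the neuronal tubulin (0.80 ± 0.22, adjusted p = 0.0255), went the other way, so the list did not move as 1 unit. The Tubb3 call was lost without sh-APP replicate 1 or 3 or anti-Abeta replicate 1 or 3, and Snap25 overlaps other genes.

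Of 10 measured oligodendrocyte lineage markers, 0 rose and 3 fell (0 and 4 at an unadjusted p under 0.05, 0 and 3 in DESeq2 and in limma-voom, against 10.6% and 15% of all genes), with a median of -0.30, and their sum was 3146 to 3300 CPM in sh-APP, 3151 to 3493 in anti-Abeta and 2679 and 2793 in the controls. Ugt8, which makes the myelin lipid galactosylceramide, had 1.0, 1.11 and 1.28 CPM in sh-APP, 3.8, 3.89 and 3.44 in anti-Abeta and 6.47 and 5.28 in the controls, and fell by 1.70 ± 0.23 (adjusted p = 0.00218). Pdgfra, the growth factor receptor of oligodendrocyte precursors, had 16.5, 17.2 and 16.8 against 25.1, 40 and 23.6 (32.6 and 35 in the controls) and fell by 0.80 ± 0.18 (adjusted p = 0.0116). Cnp, a myelin enzyme, fell by 0.19 ± 0.06 (adjusted p = 0.0387), a call lost in 8 alternatives. The sums of the 2 groups overlapped while these 3 members fell, and Ugt8 overlaps another gene. The part of oligodendrocyte and neuronal RNA in the differences above was not tested.

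Melanocyte markers were read with care, since Gpnmb and Mitf are not confined to pigment cells. Of 6 measured, 1 rose and 2 fell (10.6% and 15% of all genes), and the sum was 2277 to 2482 CPM in sh-APP, 3579 to 3871 in anti-Abeta and 4384 and 4464 in the controls. Gpnmb, a glycoprotein of melanosomes and lysosomes that made up nearly all of it, had 2210, 2359 and 2165 CPM in sh-APP, 3665, 3712 and 3450 in anti-Abeta and 4263 and 4196 in the controls, and fell by 0.67 ± 0.06 (adjusted p = 0.00073). Slc24a5, an ion exchanger of melanosomes that overlaps another gene, fell by 0.86 ± 0.16, and the calcium-binding S100a1 rose by 0.50 ± 0.08. Among the pigment genes, 4 were at or near 0 in the 6 libraries, with 0 counts for Tyrp1, 2 for Mlana, 10 for Dct and 14 for Tyr. Pmel, which encodes the fibril protein of melanosomes, held 250 counts, with 0.776, 0.706 and 0.457 CPM in sh-APP, 0.942, 1.13 and 1.71 in anti-Abeta and 0.725 and 0.731 in the controls. Its groups did not overlap, and the difference of -0.95 ± 0.39 did not pass (adjusted p = 0.0998). Sox10 (-0.77 ± 0.39) and Mitf (-0.25 ± 0.14), transcription factors of melanocytes and of other cells, did not pass either.

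Microglial markers were scarce. The 4 measured gave 0 calls in edgeR's test in either direction (0 higher and 1 lower at an unadjusted p under 0.05 and in DESeq2, 0 and 0 in limma-voom), and their list summed to 10.8 to 13.5 CPM in sh-APP, 12.7 to 22.0 in anti-Abeta and 12.2 and 15.7 in the controls. Cx3cr1 was at 0 counts in all 6 libraries, and Cd68, a lysosomal protein picked after its values were seen, was the largest part of the sum (-0.61 ± 0.21, adjusted p = 0.0508). The 3 measured endothelial markers also gave 0 calls (1 higher and 0 lower at an unadjusted p under 0.05 and in DESeq2, 0 and 0 in limma-voom), with Cldn5 at 0 counts. Pericyte and fibroblast markers gave 1 rise, the receptor Pdgfrb (0.69 ± 0.17, adjusted p = 0.0156), and 1 fall, Col3a1, among 9. Of 3 measured ependymal markers 1 rose, the ciliary gene Rsph1 (0.55 ± 0.15, adjusted p = 0.0237), which overlaps another gene, and Tmem212 was at 0 counts. The microglial list gave 1 fall in 4 of the alternatives that kept all libraries (DESeq2, a filter of 1 CPM, all 8 libraries in the fit and the replicate block) and without anti-Abeta replicate 2. The endothelial list gave 1 rise in 6 of them (the same 4, upper-quartile factors and library totals) and without anti-Abeta replicate 3. The calls for Pdgfrb and Rsph1 were lost without sh-APP replicate 1 or 3, and that for Rsph1 also without anti-Abeta replicate 2.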

How the data were processed

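RNA was read as gene counts in 8 libraries of rat astrocytes, of which 6 enter the contrast. The authors deposited whole-number counts per gene symbol, not normalized. Per the submitters' processing notes, the tools were STAR 2.6.0a and HTSeq 0.11.1 on build rn6, with DESeq2 1.24.0, SAMtools 1.9, Trimmomatic 0.36 and FastQC 0.11.7, their settings not stated. The sources used here do not give strandedness, so reads of overlapping or antisense genes cannot be told apart. Of 28546 entries, 8853 held no count in any library.

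Genes with 10 or more counts in at least 3 of the 6 libraries (13950, holding 99.97% of counts) were tested in edgeR 4.0.16 (R 4.3.3) with TMM factors, group as the only term, 4 residual degrees of freedom, the robust quasi-likelihood test and Benjamini-Hochberg adjustment over all genes tested, at 0.05. CPM used TMM factors of all 8 libraries. Single values were compared by exact permutation in SciPy 1.17.1. The fit was also run on simulated counts with the same spread for every gene, smaller than the common spread of these libraries. That run does not check the fit at the spread of the data.

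The comparison and its gene lists were chosen with earlier results of these data known. Symbols that are dates or locus identifiers were left out when the largest differences were picked. Named are the 12 largest called differences each way with non-overlapping groups and at least 5 CPM, up to 4 called members per list with the smallest p, and App, Gfap, Vim, Lcn2, C3, Ccl2, Cxcl10, Apoe and Clu, 122 in all. A RefSeq gene table of a later assembly (GRCr8) matched 118 of them, and 35 overlap another gene. Values of a few of these and other genes are not reported here. Alternatives were DESeq2 1.42.0, limma-voom (limma 3.58.1), other scalings and filters, a non-robust spread, all 8 libraries, the replicate number as a block, no mitochondrially encoded genes, and each library left out. Promoter GC content and letters were also tabulated over all called genes, and no conclusion is drawn from them. TTTGAA was in 15.3% of the windows of genes called lower, 7.69% of those called higher and 11.8% of those not called. Only 71.3% of tested genes have a promoter window, which also limits the shares of tested genes given beside the lists.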

Additional observations from a re-analysis of the deposited data

How the results depend on the processing

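The 3563 calls ranged from 3323 (no low-count filter) to 4090 (DESeq2) over the alternatives that kept all libraries. With a library left out they ranged from 1590 to 3304, with 566 to 1376 higher and 1024 to 1928 lower, the fewest without sh-APP replicate 1. Genes higher by more than 2-fold (93) ranged from 53 to 103, and those lower by more than 2-fold (237) from 123 to 283, the fewest without anti-Abeta replicate 2. No named gene that was called changed direction under any alternative run. Of 118 named genes called, 95 kept the call under every alternative and 23 lost it under at least 1. App, Apoe and Cxcl10 gained a call under at least 1.

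Same-numbered libraries of the 2 groups had correlations of their deviations of 0.12, 0.122 and -0.02, against -0.139 to 0.034 for differing numbers. Replicates 1 and 2 thus correlated best with their own number, and replicate 3 did not. The labels give no shared source for equal numbers, and the numbers were not taken to pair the libraries. With the replicate number as a block 3919 genes were called (1616 higher and 2303 lower), and 97.4% of the main calls were kept.

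With 3 libraries a group the fit has 4 residual degrees of freedom, and small fold changes of scarce genes were seldom called: 2.26% rose and 3.3% fell in the lowest of 4 equal classes of genes by level, against 20.2% and 24.9% in the highest.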

Other observations

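Gene families taken by the start of the symbol, picked after their values were seen, gave further counts against the 10.6% of genes called higher and 15% called lower. Of 31 tested genes of ubiquitin-conjugating enzymes (Ube2), 12 fell and 2 rose, and of 46 of ubiquitin-specific proteases (Usp) 12 fell and 2 rose. RNA helicases of the Ddx and Dhx families gave 13 falls and 2 rises among 49, and translation initiation factors (Eif) gave 15 falls and 5 rises among 52. Among 254 zinc finger genes (Zfp and Znf) 50 fell and 17 rose. Of 9 subunit genes of the chaperonin that folds actin and tubulin (Cct), 4 fell and 0 rose in edgeR's test, with a median of -0.28. In the other direction, 3 of 6 Ifitm genes, which encode membrane proteins that hinder viral entry, rose and 0 fell, with a median of 0.64, and 5 of 13 glutathione transferase genes (Gst) rose and 1 fell. Solute carriers (Slc) gave 42 rises and 32 falls among 245, and mitochondrial ribosomal proteins (Mrp) 11 rises and 5 falls among 74.

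Genes called lower spanned more of the chromosome than genes called higher. In the later rat assembly their median span was 34.8 kb against 14.4 kb for genes called higher and 26.5 kb for genes not called, with a span known for 90.8%, 93.6% and 85.0% of them. The share of called genes also rose with level, from the lowest to the highest of 4 equal classes of tested genes. What the span has to do with the fold change was not tested.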
